A study of Mus musculus with 36 samples.

Results

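The genes described here are the cytosolic aminoacyl-tRNA synthetases and the genes of the integrated stress response governed by the transcription factor Atf4. They were taken as a named list and matched by symbol to the rows of the count table. All 35 listed genes were found among the 23845 genes of the table. Of these, 20 encode synthetases and 15 encode stress-response proteins.

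An aminoacyl-tRNA synthetase joins an amino acid to its cognate tRNA, so the family supplies every charged tRNA that the ribosome uses. The enzymes fall into a class I and a class II with unrelated folds, and several are held in a multi-synthetase complex by non-catalytic scaffold proteins. Uncharged tRNA and other stresses activate kinases that phosphorylate the translation initiation factor eIF2, which slows general translation while Atf4 mRNA is translated more. Atf4, often with a C/EBP partner, then switches on synthetases, amino acid transporters, serine and one-carbon enzymes and feedback regulators. Because Atf4 is regulated largely in translation, its mRNA level does not report its activity. In the mouse, the early embryo passes from stored oocyte transcripts to its own transcription, which has already begun at the 2-cell stage.

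RNA was sequenced from 36 libraries, each a pool of 4 to 5 mouse embryos. The 17 libraries of 2-cell embryos comprised 6 KRAB, 7 Ctrl and 4 NI pools. The 19 libraries of 8-cell embryos comprised 7 VP64, 6 Ctrl and 6 NI pools. KRAB is the name of a transcriptional repressor domain and VP64 that of an activator domain, and the title of the series concerns activation of LINE-1 retrotransposons after fertilisation. The labels speak of injected embryos but give neither the molecule that carried each domain, nor what Ctrl embryos received, nor the wording behind NI, the strain or the age. Libraries are whole embryos, so every cell contributes, and nothing in the labels says whether pools came from separate litters or days. The p-values therefore measure only the spread between pools, which may be technical. Levels are in CPM, a gene's rounded count as a share of the library's scaled total, times 1000000.

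Promoter sequence is shown first for 6 of these genes, because they carry the same letters near their start sites and changed in opposite directions between the stages. The letters TGATGNAA, searched on both strands, are those of the composite C/EBP-ATF element known from Asns and Chac1. RefSeq promoters (GRCm38.p6, 250 bases before to 50 bases after the start) were matched for 28 of the 35 genes. Those without one were Cars, Hars, Lars, Nars, Rars, Vars and Wars. The element was found in 10 of the 28, namely in the synthetases Aars, Gars, Iars, Tars and Yars and in Asns, Atf3, Chac1, Slc7a11 and Trib3, against 4.51% of 27025 genes and 3.97% of 32851 promoters. Asns and Chac1 are themselves in the list, and the stress genes were listed for their link to Atf4. The larger share among the 28 is therefore no finding of these data. The endoplasmic reticulum stress element, searched in the same way, was found in 0 of the 28 promoters, against 0.137% of genes. Each sequence below runs 5′ to 3′ on the gene's own strand over 180 bases, from 150 before the start to 30 after it, with matches to the element in capitals. A match on the other strand appears as the reverse complement of the element.
Slc7a11 (chr3:50443584-50443763, minus strand): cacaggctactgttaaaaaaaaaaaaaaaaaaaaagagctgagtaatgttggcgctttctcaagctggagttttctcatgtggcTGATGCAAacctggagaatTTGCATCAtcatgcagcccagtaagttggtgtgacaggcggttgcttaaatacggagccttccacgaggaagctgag
Trib3 (chr2:152344031-152344210, minus strand): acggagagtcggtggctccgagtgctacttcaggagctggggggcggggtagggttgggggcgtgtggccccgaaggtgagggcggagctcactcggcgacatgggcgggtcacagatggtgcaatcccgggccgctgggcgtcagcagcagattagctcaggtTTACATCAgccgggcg
Iars (chr13:49681980-49682159, plus strand): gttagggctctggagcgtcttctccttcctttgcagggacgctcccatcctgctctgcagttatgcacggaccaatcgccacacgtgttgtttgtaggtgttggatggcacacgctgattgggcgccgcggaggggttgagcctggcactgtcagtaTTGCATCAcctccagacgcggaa
Asns (chr6:7693180-7693359, minus strand): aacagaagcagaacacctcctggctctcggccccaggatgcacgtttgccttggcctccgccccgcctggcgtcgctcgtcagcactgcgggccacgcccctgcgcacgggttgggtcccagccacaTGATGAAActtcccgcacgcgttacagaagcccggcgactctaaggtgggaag
Gars (chr6:55037851-55038030, plus strand): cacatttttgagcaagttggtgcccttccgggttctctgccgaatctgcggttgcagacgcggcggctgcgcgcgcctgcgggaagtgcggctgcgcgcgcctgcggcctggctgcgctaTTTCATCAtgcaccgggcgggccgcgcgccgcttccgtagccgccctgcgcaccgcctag
Yars (chr4:129189753-129189932, plus strand): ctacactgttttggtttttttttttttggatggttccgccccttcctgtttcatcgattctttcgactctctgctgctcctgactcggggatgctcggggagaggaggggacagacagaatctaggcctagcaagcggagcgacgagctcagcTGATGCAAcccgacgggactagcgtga

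Slc7a11 held 2 matches on opposite strands, whose first bases lay 66 and 47 bases before the start. The single match began 23 bases before the start in Asns and 30 bases before it in Gars. In Yars, Iars and Trib3 it began 4, 8 and 15 bases after the start. Slc7a11, Trib3 and Iars were lower at the 8-cell stage in Ctrl embryos, whereas Asns, Gars and Yars were higher. Atf3 and Chac1 also carry the element and were lower in Ctrl embryos, but their sequences are not shown. Aars and Tars, which carry it as well, did not pass in Ctrl embryos. The genes shown were chosen because they moved in opposite directions, so their even split is no result about the element. The Ctrl calls on Gars and Trib3 were lost in 8 and 6 of the fits that left out a single library. A match is a description of letters, not of binding.

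The libraries held 1103574 to 13583527 counts at the 8-cell stage and 1043740 to 10035066 at the 2-cell stage, and no pair of replicates agreed within sampling noise. Oosp1, an oocyte transcript, Zscan4c, a 2-cell transcript, and Cldn4 and Gata6, transcripts of later cleavage, separated the stages, but Nanog and Sp110 did not. Several libraries stood apart. Ctrl 2-cell replicate 3 held 89.0 CPM of Cldn4 and 64.9 CPM of Tdgf1, against at most 6.98 and 3.42 CPM in the other Ctrl 2-cell libraries, and Ctrl 2-cell replicate 6 was the shallowest. Ctrl 8-cell replicate 6 had the fewest genes with a count (9672) and 287 CPM of the oocyte transcript Omt2a, and VP64 8-cell replicate 7 was lowest of its group for many of the genes described here. Transcripts typical of granulosa and cumulus cells, the somatic neighbours of the oocyte, summed to 0 to 2.64 CPM at the 8-cell stage and 0.981 to 48.5 CPM at the 2-cell stage. Of the 10 markers, 6 were at 0 in every 8-cell library and 2, Amh and Lum, in every 2-cell library. Sperm markers summed to at most 1.99 CPM at the 8-cell stage and 20.9 CPM at the 2-cell stage. The part of these cells in the results was not tested. Low counts removed Atf5 from every test, so 34 of the 35 genes could be compared between the stages.

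**Figure D1:**
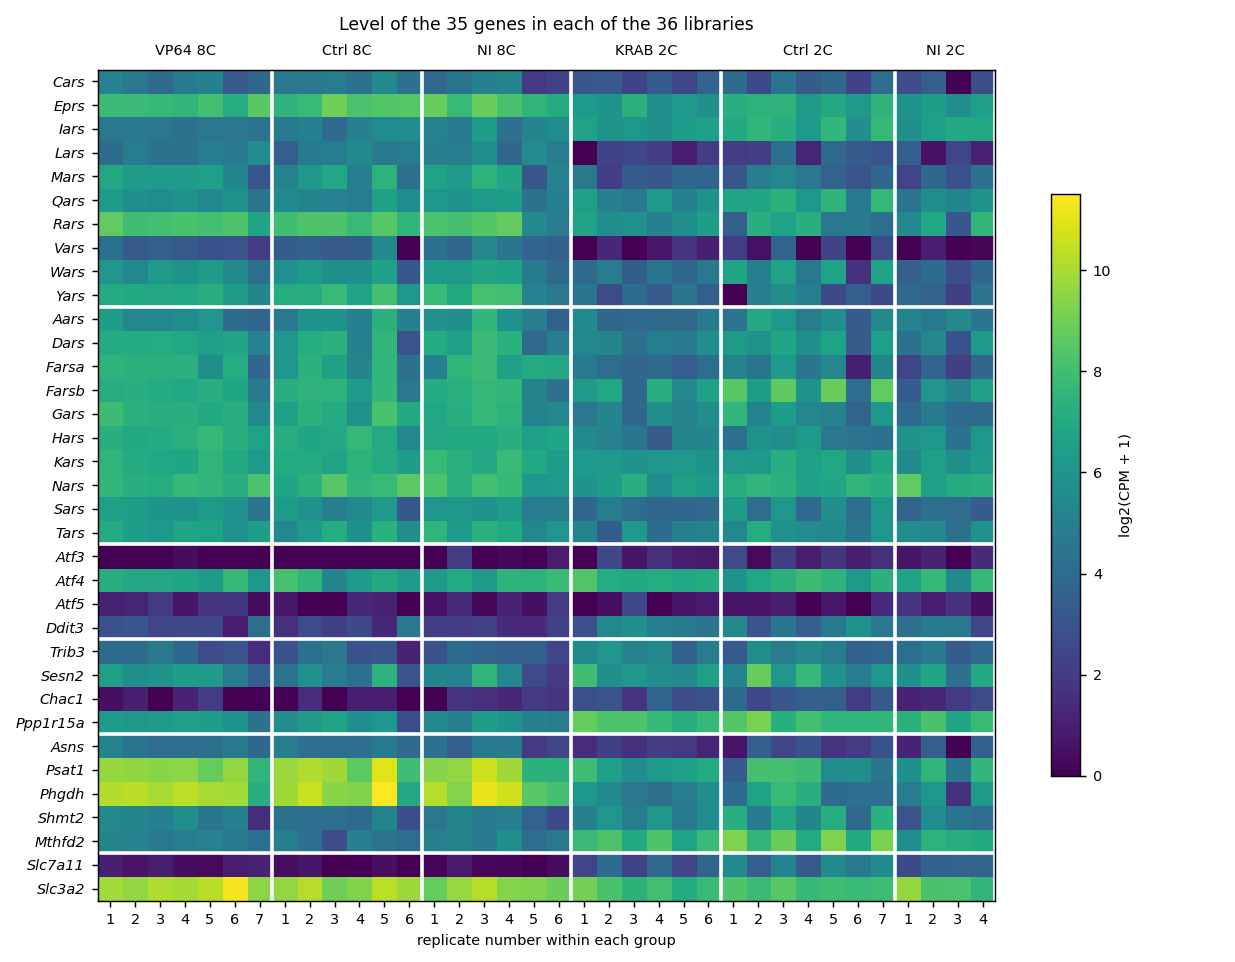
Level of each of the 35 genes (rows, in the order of class I synthetases, class II synthetases, transcription factors, regulators, enzymes and transporters) in each of the 36 libraries (columns, by group and replicate), as log2(CPM + 1) in colour. Phgdh and Psat1 are bright in the 8-cell groups, Mthfd2, Ppp1r15a and Slc7a11 are brighter in the 2-cell groups, and Atf3 and Atf5 are dark in both.

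Among the synthetases, more transcripts rose than fell at the 8-cell against the 2-cell stage. In Ctrl embryos 9 of the 20 rose, 2 fell and 9 did not pass an adjusted p of 0.05. In NI embryos 14 rose, 1 fell and 5 did not pass. For comparison, 22.5% of the 13158 genes tested rose and 39% fell in Ctrl embryos, and 18.5% rose and 31.4% fell in NI embryos. The median log2 fold change of the synthetases was 0.89 in Ctrl and 1.69 in NI embryos, while the median over all genes was −0.51 in Ctrl and −0.47 in NI embryos. These are shares of the sequenced RNA: in pooled whole embryos, fewer cells of a type and less RNA per cell cannot be told apart, and total RNA per embryo was not measured. Over all 34 tested genes, 23 passed in Ctrl (13 higher, 10 lower) and 21 in NI embryos (16 higher, 5 lower), against 61.5% and 49.9% of all genes. Of these, 10 were higher in both, 5 were lower in both and 0 moved in opposite directions. The matching shares over all genes are not given here, so these counts set the members apart from no other genes. Without any overlap between the libraries of the stages, 5 were higher and 5 lower in Ctrl embryos, against 7.11% and 17.3% of all genes. In NI embryos 9 were higher and 3 lower without overlap, against 12.8% and 20.7% of all genes.

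Yars, the tyrosyl-tRNA synthetase, had a lowest, median and highest level of 66.9, 140.4 and 266 CPM in Ctrl 8-cell libraries, against 0, 9.81 and 50.9 CPM in Ctrl 2-cell libraries. In NI 8-cell libraries it had 22.9, 175 and 287 CPM, against 14.8, 11.3, 3.59 and 19.97 CPM in the 4 NI 2-cell libraries. The stages did not overlap in either series. Its log2 fold change was 3.05 ± 0.65 (SE) in Ctrl and 3.65 ± 0.85 in NI embryos, with adjusted p = 0.000126 and 0.000538 from edgeR's quasi-likelihood test. Farsa, the catalytic subunit of the phenylalanyl-tRNA synthetase, had 18.3, 80.4 and 187 CPM in Ctrl 8-cell libraries, against 0.981, 35.1 and 73.5 CPM in Ctrl 2-cell libraries. NI 8-cell libraries had 31.04, 127 and 228 CPM, against 4.31, 12.2, 3.59 and 12.9 CPM in NI 2-cell libraries. The ranges overlapped in Ctrl and stood apart in NI embryos. For Farsa the log2 fold change was 1.51 ± 0.56 in Ctrl and 3.93 ± 0.77 in NI embryos. The Ctrl call on Farsa was lost without Ctrl 8-cell replicate 2 (adjusted p = 0.0540, edgeR).

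Gars, the glycyl-tRNA synthetase, whose element lies just before its start in the sequence above, had 60.0, 130.5 and 297 CPM in Ctrl 8-cell libraries, against 11.8, 39.3 and 190.3 CPM in Ctrl 2-cell libraries. The NI 8-cell libraries held 35.004, 133 and 199.8 CPM, against 14.2, 24.7, 15.1 and 14.2 CPM in NI 2-cell libraries. Every NI 8-cell library lay above every NI 2-cell library, while the Ctrl ranges overlapped. The log2 fold change was 1.14 ± 0.48 in Ctrl and 2.79 ± 0.63 in NI embryos. The Ctrl call on Gars was lost without any 1 of Ctrl 2-cell replicates 2 to 7 or Ctrl 8-cell replicates 2 and 5, with adjusted p of 0.0605 to 0.127 (edgeR). Eprs, the bifunctional glutamyl-prolyl enzyme, had 179.6, 326 and 512 CPM in Ctrl 8-cell libraries, against 72.6, 149 and 179.6 CPM in Ctrl 2-cell libraries. NI embryos at the 8-cell stage had 132, 255 and 472 CPM, against 57.8, 86.4, 48.9 and 89.1 CPM in NI 2-cell libraries. The lowest Ctrl 8-cell library was only just above the highest Ctrl 2-cell library. This gave a log2 fold change of 1.23 ± 0.37 in Ctrl and 2.04 ± 0.47 in NI embryos.

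The leucyl enzyme Lars rose with a log2 fold change of 1.75 ± 0.55 in Ctrl and 3.08 ± 0.74 in NI embryos. The methionyl enzyme Mars rose by 1.94 ± 0.58 and 2.93 ± 0.75 on the same scale, and the histidyl enzyme Hars by 1.73 ± 0.40 and 1.17 ± 0.48, in Ctrl and in NI embryos. Vars, the valyl-tRNA synthetase, had 0, 9.41 and 44.8 CPM in Ctrl 8-cell libraries, against 0, 3.42 and 12.5 CPM in Ctrl 2-cell libraries. The lowest, median and highest NI 8-cell levels were 10.4, 15.9 and 41.5 CPM, against 0, 0.960, 0 and 0.165 CPM in NI 2-cell libraries, where the group held 5 counts in all. The fitted log2 fold change was 1.84 ± 0.75 in Ctrl and 5.67 ± 1.22 in NI embryos, with the NI value resting on very few 2-cell counts. The Ctrl call on Vars was lost when Ctrl 2-cell replicate 1, 2, 4, 5 or 6 or Ctrl 8-cell replicate 5 was left out, with adjusted p of 0.0516 to 0.201. In NI embryos the calls on Cars, Dars, Hars and Tars were lost in 5, 7, 7 and 5 of the fits that left out 1 library, with adjusted p of at most 0.148.

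Iars, the isoleucyl enzyme, fell in both series in the fit over all 36 libraries. It had 15.005, 31.99 and 48.6 CPM in Ctrl 8-cell libraries, against 48.1, 150.3 and 211 CPM in Ctrl 2-cell libraries. In NI 8-cell libraries it had 19.1, 34.4 and 83.5 CPM, against 52.3, 89.7, 124 and 119 CPM in NI 2-cell libraries. The highest 8-cell library reached into the 2-cell range in each series. On the log2 scale the change was −2.09 ± 0.39 in Ctrl (adjusted p = 1.68e-05, edgeR) and −1.24 ± 0.42 in NI embryos (adjusted p = 0.0134). The NI call on Iars was lost when only the groups compared were fitted (log2 fold change −1.08, adjusted p = 0.0812, edgeR). Qars, the glutaminyl enzyme, fell in Ctrl embryos with a log2 fold change of −1.37 ± 0.44, and its value in NI embryos was 0.41 ± 0.50. Wars, the tryptophanyl enzyme, rose in NI embryos by 2.49 ± 0.68, and its value in Ctrl embryos was −0.21 ± 0.53. Rars, the arginyl enzyme, rose in Ctrl embryos by 2.02 ± 0.60, and its value in NI embryos was 1.39 ± 0.71.

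**Figure D2:**
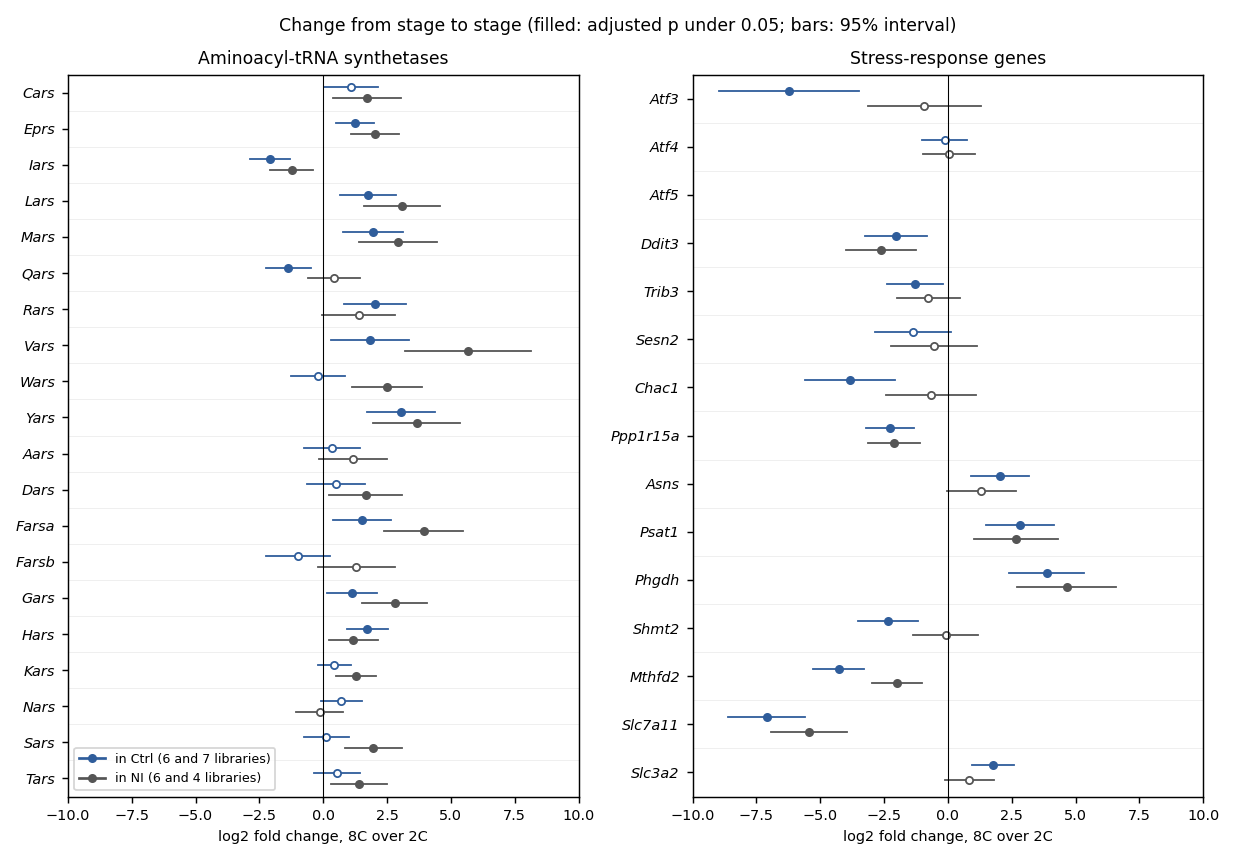
Log2 fold change of each gene at the 8-cell over the 2-cell stage (points) with its 95% interval (bars), in Ctrl (blue, upper) and NI embryos (grey, lower), filled where the adjusted p was under 0.05. Synthetases lie mostly right of 0 with Iars left of it, and the stress genes lie on both sides; the fitted Ctrl value of Atf3 stands against a group at 0 counts and is no bound.

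By structural class, the counts stand against 22.5% of all genes higher and 39% lower in Ctrl, and 18.5% higher and 31.4% lower in NI embryos. Of the 10 class I enzymes 6 rose and 2 fell in Ctrl, and 7 rose and 1 fell in NI embryos. The bifunctional glutamyl-prolyl enzyme Eprs, which rose in both series, was counted in class I only. Of the 10 class II enzymes 3 rose and 0 fell in Ctrl, and 7 rose and 0 fell in NI embryos. The 3 in Ctrl are near the share of all genes and include Farsa and Gars, whose calls were lost under the omissions given above. Among the 8 catalytic members of the multi-synthetase complex, 4 rose and 2 fell in Ctrl, and 5 rose and 1 fell in NI embryos, Iars falling in each and Qars in Ctrl embryos. Of its 3 scaffold genes, 2 rose in Ctrl and 3 in NI embryos. Aimp1 averaged 64.0 CPM in Ctrl 8-cell against 5.79 CPM in Ctrl 2-cell libraries, a log2 fold change of 3.47 ± 0.53, and it rose by 3.76 ± 0.67 in NI embryos. Eef1e1 rose by 1.95 ± 0.46 in Ctrl and 3.49 ± 0.61 in NI embryos, and Aimp2 by 1.20 ± 0.50 in NI embryos, with 0.60 ± 0.42 in Ctrl embryos.

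Of the 17 separately encoded mitochondrial synthetases, 7 were higher and 2 lower in Ctrl, against 22.5% and 39% of all genes. In NI embryos 4 were higher and 2 lower, against 18.5% and 31.4% of all genes, so the rises there were near that share. Fars2, the mitochondrial phenylalanyl enzyme, averaged 2.50 CPM in Ctrl 8-cell against 66.99 CPM in Ctrl 2-cell libraries. Its log2 fold change was −4.71 ± 0.67 in Ctrl and −4.59 ± 0.69 in NI embryos, opposite in sign to that of Farsa. Wars2 rose by 2.95 ± 0.49 in Ctrl and 2.63 ± 0.60 in NI embryos, and Tars2 by 1.58 ± 0.49 and 2.08 ± 0.61. Yars2 rose by 2.73 ± 0.92 and Sars2 by 2.31 ± 0.49 in Ctrl embryos, and Rars2 by 2.68 ± 0.79 in NI embryos.

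Of the 14 stress-response genes tested, 4 rose and 8 fell in Ctrl, against 22.5% higher and 39% lower among all genes. In NI embryos 2 rose and 4 fell, near the 18.5% and 31.4% of all genes. Their median log2 fold change was −1.70 in Ctrl and −0.61 in NI embryos, and it was the same to 2 decimals with Atf3 set at its bound. Among the transcription factors, Atf4 itself had 37.8, 100.5 and 287 CPM in Ctrl 8-cell libraries, against 58.2, 164 and 237 CPM in Ctrl 2-cell libraries. NI 8-cell libraries had 73.3, 151 and 231 CPM, against 103, 207, 43.9 and 202 CPM in NI 2-cell libraries. The ranges of the stages overlapped in both series. The log2 fold change of Atf4 was −0.13 (95% interval −1.003 to 0.75) in Ctrl and 0.03 (−0.99 to 1.05) in NI embryos, and neither passed the test.

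Ddit3, the pro-apoptotic factor CHOP, fell in both series. It had 1.51, 4.08 and 22.9 CPM in Ctrl 8-cell libraries, against 7.20, 23.9 and 58.9 CPM in Ctrl 2-cell libraries, and 22.9 CPM was that of the 8-cell library with the fewest genes. The NI 8-cell libraries held 1.61, 3.19 and 3.77 CPM, against 17.2, 25.4, 23.7 and 4.29 CPM in NI 2-cell libraries. All NI 8-cell libraries were thus below all NI 2-cell libraries. The log2 fold change was −2.04 ± 0.61 in Ctrl and −2.62 ± 0.68 in NI embryos. Atf3, a stress-induced repressor, had 0 counts in all 6 Ctrl 8-cell libraries, against 84 counts in the 7 Ctrl 2-cell libraries, so it was at least 15.4-fold lower, with the floor at 3 counts over the group. In NI embryos Atf3 had 10 counts in 8-cell and 16 in 2-cell libraries and did not pass. Without Ctrl 2-cell replicate 1 or 3, Atf3 no longer passed the filter on low counts and was not tested.

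Of the regulators, Ppp1r15a fell in both series. Its product directs a phosphatase to eIF2 and so ends the stress response. It had 5.72, 56.1 and 104 CPM in Ctrl 8-cell libraries, against 149, 196 and 581 CPM in Ctrl 2-cell libraries. NI embryos at the 8-cell stage had 28.4, 35.7 and 84.7 CPM, against 160.0, 297, 107 and 223 CPM in NI 2-cell libraries. The stages did not overlap in either series. The log2 fold change was −2.26 ± 0.47 in Ctrl (adjusted p = 7.77e-05, edgeR) and −2.09 ± 0.51 in NI embryos (adjusted p = 0.000810). Chac1, which degrades glutathione, fell in Ctrl embryos with a log2 fold change of −3.83 ± 0.87. It was at most 1.79 CPM in the Ctrl 8-cell libraries, against at least 2.94 CPM in the Ctrl 2-cell libraries. Trib3, a pseudokinase that feeds back on Atf4, fell in Ctrl embryos with −1.30 ± 0.54. That call was lost without Ctrl 8-cell replicate 1, 4, 5 or 6 or Ctrl 2-cell replicate 2 or 4, with adjusted p of 0.0519 to 0.114. In NI embryos Chac1 and Trib3 had values of −0.66 ± 0.87 and −0.76 ± 0.61, and Sesn2, a sestrin that restrains mTORC1, passed in neither series.

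Of the 5 enzymes, 3 rose and 2 fell in Ctrl, against 22.5% and 39% of all genes. In NI embryos 2 rose and 1 fell, against 18.5% and 31.4% of all genes. Phgdh and Psat1, which catalyse the opening steps of serine synthesis, rose in both series. Phgdh had 123, 819.97 and 2900 CPM in Ctrl 8-cell libraries, against 15.1, 17.7 and 219.6 CPM in Ctrl 2-cell libraries. The lowest, median and highest NI 8-cell levels were 269.96, 925 and 2319 CPM, against 27.1, 64.0, 2.16 and 75.2 CPM in NI 2-cell libraries. The NI stages did not overlap, and 1 Ctrl 8-cell library, replicate 6, lay within the Ctrl 2-cell range. The log2 fold change of Phgdh was 3.88 ± 0.73 in Ctrl (adjusted p = 2.08e-05, edgeR) and 4.65 ± 0.96 in NI embryos (adjusted p = 0.000138). Psat1 rose by 2.84 ± 0.66 in Ctrl and 2.66 ± 0.81 in NI embryos. Asns, which makes asparagine, rose in Ctrl embryos by 2.03 ± 0.57, every Ctrl 8-cell library lying above every Ctrl 2-cell library, and had a value of 1.32 ± 0.67 in NI embryos.

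Mthfd2, a mitochondrial one-carbon enzyme, fell in both series. It had 5.67, 18.5 and 31.2 CPM in Ctrl 8-cell libraries, against 126, 467 and 626 CPM in Ctrl 2-cell libraries. In NI 8-cell libraries it had 16.1, 28.9 and 51.6 CPM, against 48.0, 174, 145 and 127 CPM in NI 2-cell libraries. The Ctrl stages stood far apart, and in NI embryos 1 library of each stage overlapped. This gave a log2 fold change of −4.28 ± 0.50 in Ctrl (adjusted p = 4.08e-09, edgeR) and −1.999 ± 0.49 in NI embryos (adjusted p = 0.000899). Shmt2, which transfers a carbon unit of serine, fell in Ctrl embryos with a log2 fold change of −2.36 ± 0.58 and had a value of −0.09 ± 0.64 in NI embryos.

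The subunits of the cystine transporter changed in opposite directions in Ctrl embryos. Slc7a11, the light chain that imports cystine in exchange for glutamate, had 0 to 0.598 CPM in Ctrl 8-cell libraries (4 counts in all), against 8.54 to 45.1 CPM in Ctrl 2-cell libraries, with a 2-cell median of 36.02 CPM. NI 8-cell libraries had 0 to 0.787 CPM (6 counts in all), against 4.92, 10.8, 11.5 and 12.2 CPM in NI 2-cell libraries. VP64 8-cell libraries held 0.209 to 1.20 CPM. No 8-cell library came near a 2-cell library. Slc7a11 had the most negative log2 fold change of the 34 genes in each series, with a log2 fold change of −7.09 ± 0.75 in Ctrl (adjusted p = 7.15e-10, edgeR) and −5.44 ± 0.74 in NI embryos (adjusted p = 2.61e-07). Slc3a2, the heavy chain that Slc7a11 shares with other transporters, had 506, 843 and 1326 CPM in Ctrl 8-cell libraries, against 205, 243 and 368 CPM in Ctrl 2-cell libraries. It rose by 1.77 ± 0.41 in Ctrl embryos, without overlap, and had a value of 0.83 ± 0.48 in NI embryos.

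**Figure D3:**
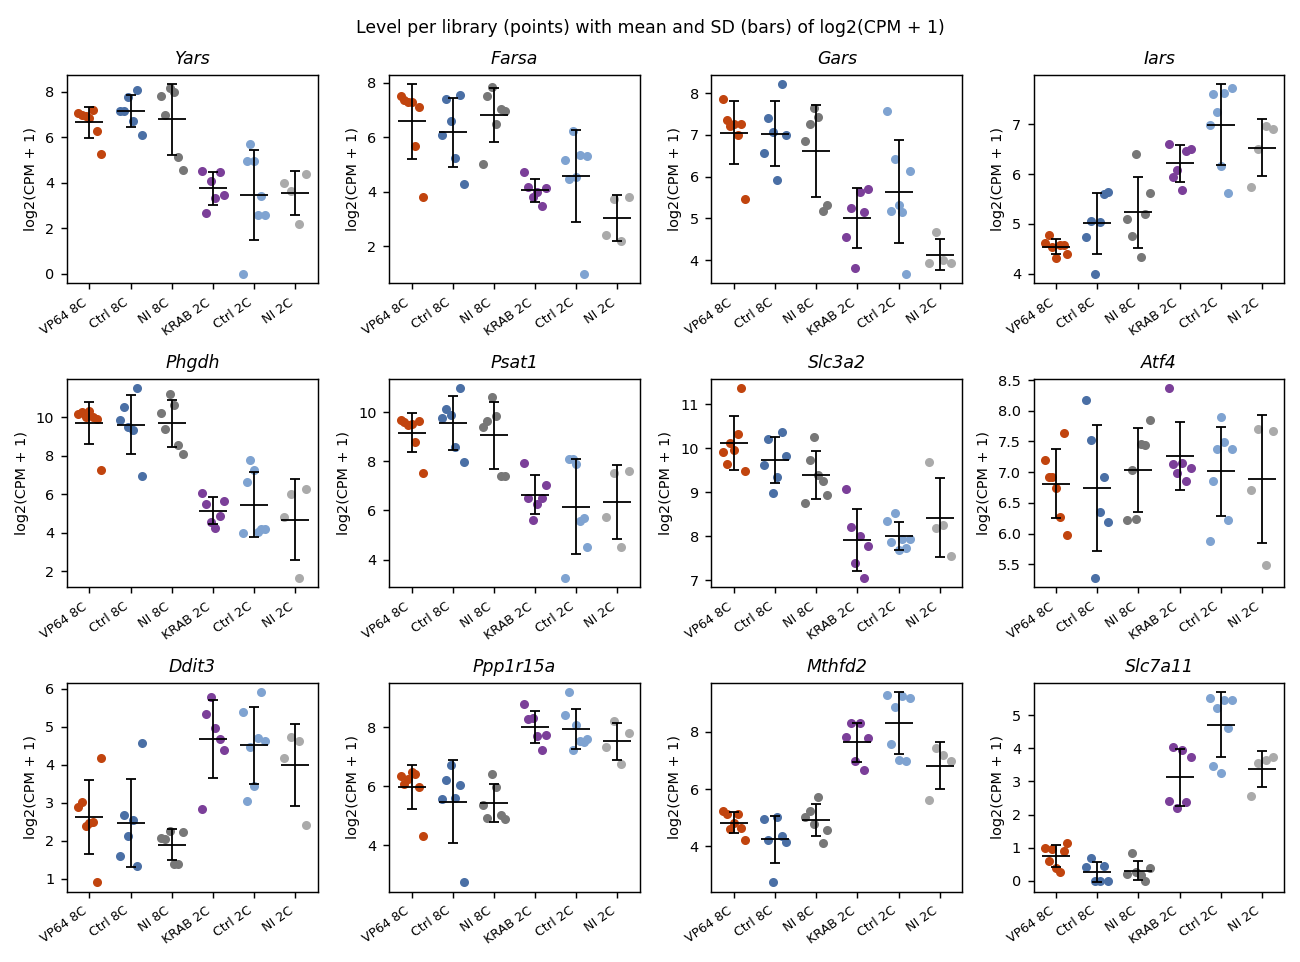
Level of 12 genes in each library (points) as log2(CPM + 1), with the group's mean (line) and SD (bars), for VP64, Ctrl and NI 8-cell and KRAB, Ctrl and NI 2-cell libraries. Yars, Farsa, Gars, Phgdh, Psat1 and Slc3a2 lie higher in the 8-cell groups, Iars, Ddit3, Ppp1r15a, Mthfd2 and Slc7a11 lie lower, and the Atf4 ranges overlap across all 6 groups.

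Of 20 further known Atf4 targets tested, 5 were higher and 7 lower in Ctrl, and 4 higher and 7 lower in NI embryos. These shares lie near those of all genes, of which 22.5% rose and 39% fell in Ctrl and 18.5% rose and 31.4% fell in NI embryos. Eif4ebp1, an inhibitor of cap-dependent translation, averaged 527 CPM in Ctrl 8-cell against 28.4 CPM in Ctrl 2-cell libraries, a log2 fold change of 4.23 ± 0.56. Bcat1, a branched-chain aminotransferase, averaged 748 CPM in NI 8-cell against 34.4 CPM in NI 2-cell libraries, a log2 fold change of 4.43 ± 0.83. Slc6a9, Slc7a1 and Slc1a4 encode amino acid transporters. The log2 fold changes were −5.36 ± 0.90 for Slc6a9 in Ctrl, −5.33 ± 0.97 in Ctrl and −5.15 ± 1.02 in NI embryos for Slc7a1, and −6.38 ± 1.30 for Slc1a4 in NI embryos. Aldh18a1, of proline synthesis, had 2 counts in the Ctrl 8-cell libraries, against 2890 in the Ctrl 2-cell libraries, a fold of 795 lower with a 95% counting interval of 220.0 to 6570. That interval covers counting noise in the pooled counts only and leaves out the spread between libraries. In NI embryos Aldh18a1 had a log2 fold change of −4.22 ± 0.84.

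Upstream of Atf4, 6 of 13 tested genes for eIF2, its exchange factor, kinases and phosphatases rose and 4 fell in Ctrl, against 22.5% and 39% of all genes. In NI embryos 5 rose and 3 fell, against 18.5% and 31.4% of all genes. Eif2ak4, the kinase GCN2 that senses uncharged tRNA, averaged 2.30 CPM in Ctrl 8-cell against 28.6 CPM in Ctrl 2-cell libraries. On the log2 scale the change was −3.54 ± 0.73 in Ctrl and −4.04 ± 0.79 in NI embryos. Subunits of the exchange factor eIF2B went the other way. Eif2b3 rose by 3.03 ± 0.43 in Ctrl and 3.08 ± 0.54 in NI embryos, Eif2b5 by 2.55 ± 0.53 and 2.95 ± 0.67, and Eif2b2 by 1.93 ± 0.48 and 2.76 ± 0.61. Eif2s2, a subunit of eIF2, rose by 2.81 ± 0.43 in Ctrl and 1.56 ± 0.50 in NI embryos. Of 17 tested genes of the unfolded protein response, 1 rose and 5 fell in Ctrl, and 1 rose and 1 fell in NI embryos, in each case lower shares than those of all genes. Ern1, the sensor IRE1, fell in both, with −5.45 ± 0.83 in Ctrl and −2.71 ± 0.79 in NI embryos. Syvn1, Sdf2l1 and Hsp90b1, which serve protein folding and disposal in the endoplasmic reticulum, fell in Ctrl embryos with −2.17 ± 0.67, −1.20 ± 0.48 and −1.11 ± 0.33, and Atf6 rose by 1.51 ± 0.61 in NI embryos.

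Whether the stage change differed between Ctrl and NI embryos was tested as an interaction. After adjustment 0 of the 34 passed, against 0% of all 13158 genes (edgeR). At an unadjusted p under 0.05 there were 11 of the 34, all with the more negative change in Ctrl embryos, against 20.4% of all genes in either direction and 13.6% in that direction. DESeq2 called 693 genes in all, among them 4 of the members, Chac1, Mthfd2, Vars and Wars. The smallest unadjusted p were those of Mthfd2, with a difference of −2.28 ± 0.67 in log2 fold change (adjusted p = 0.0923, edgeR, and 0.0196 to 0.241 over the alternatives), and Wars, with −2.71 ± 0.85 (adjusted p = 0.0994, and 0.0160 to 0.240 over the alternatives). Vars had a difference of −3.83 ± 1.36, and Farsa of −2.42 ± 0.89. Atf3 had −5.31 ± 1.74, a fitted value that rests on a group at 0 counts. Leaving out Ctrl 2-cell replicate 6 alone gave 4 calls, on Farsa, Mthfd2, Qars and Wars, and leaving out Ctrl 2-cell replicate 4 gave 1, on Mthfd2. Counts over all genes in these fits are not given here. A joint omission of 4 libraries, replicate 6 among them, gave 432 calls over all genes, 2 of them members.

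For KRAB against Ctrl embryos at the 2-cell stage, none of the 32 genes that could be tested passed after adjustment (edgeR, 0 of 32, against 0% of 11799 genes). DESeq2 also called 0 of the 32, with 221 calls among all genes. At an unadjusted p under 0.05, 5 of the 32 were lower and 0 higher in KRAB embryos, a share of 15.6% against 11.7% lower and 3.86% higher among all genes. Of 19 tested synthetases, 18 had a negative and 1 a positive value, and of 13 stress-response genes 8 had a negative and 5 a positive one, while 44.7% of all genes had a positive value. The median over the 32 genes was −0.63, against −0.13 over all genes. Wars had 14.8, 28.3, 9.43, 21.4, 13.0 and 23.7 CPM in the 6 KRAB libraries, against 106, 30.3, 98.3, 23.1, 99.6, 1.96 and 97.7 CPM in the 7 Ctrl libraries and 10.5, 15.8, 5.75 and 13.5 CPM in the 4 NI libraries. The KRAB and NI ranges overlapped, and 4 of the 7 Ctrl values stood above all others. The log2 fold change of Wars for KRAB over Ctrl was −1.61 ± 0.55 (adjusted p = 0.233, edgeR, and 0.0498 to 0.465 over the alternatives), the lowest of these without Ctrl 2-cell replicate 6.

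Slc7a11 had 4.35, 15.4, 3.61, 14.3, 4.23 and 12.3 CPM in KRAB libraries, against 45.1, 10.1, 36.02, 8.54, 42.5, 23.5 and 42.9 CPM in Ctrl libraries. Its log2 fold change was −1.56 ± 0.48 (adjusted p = 0.222, edgeR). The seryl enzyme Sars had −1.19 ± 0.43 and Qars −1.005 ± 0.43 on that scale. Farsb, the other subunit of the phenylalanyl enzyme, had −1.44 ± 0.66. For KRAB against NI embryos 0 of 32 genes passed (0% of all genes) by edgeR and 0 by DESeq2. At an unadjusted p under 0.05 there was 1 of the 32, Nars, the asparaginyl enzyme, against 3.12% of all genes. Its log2 fold change was −1.34 ± 0.49, and −0.52 without NI 2-cell replicate 1, which held 418 CPM of Nars against 89.5, 135 and 147 CPM in the other NI 2-cell libraries. Chac1, Trib3, Gars and Farsa came next, each with a positive value between 0.95 and 1.19.

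Ctrl embryos against NI embryos at the 2-cell stage gave 0 of 32 calls by edgeR (0% of all genes) and 5 by DESeq2, on Farsa, Farsb, Gars, Shmt2 and Wars, among 1071 DESeq2 calls over all genes. The same 5 passed in edgeR without Ctrl 2-cell replicate 6. The count over all genes in that fit is not given here. A joint omission of 4 libraries, that replicate among them, gave 479 calls over all genes, 1 of them a member. At an unadjusted p under 0.05, 10 of 32 were higher and 0 lower in Ctrl embryos, a share of 31.2% against 14.8% higher and 8.59% lower among all genes. The median over the 32 genes was 0.66, against 0.07 over all genes. Wars had a log2 fold change of 2.25 ± 0.67 (adjusted p = 0.121, edgeR, and 0.0172 to 0.349 over the alternatives), Shmt2 of 1.79 ± 0.62, Farsa of 1.77 ± 0.63, Gars of 1.75 ± 0.60 and Sars of 1.39 ± 0.50. KRAB against Ctrl and Ctrl against NI share the 7 Ctrl libraries, so their opposite signs are not independent. The difference of stage changes between Ctrl and NI embryos uses the same Ctrl and NI 2-cell libraries. It is therefore not a result separate from Ctrl against NI at the 2-cell stage.

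The Ctrl 2-cell libraries differed among themselves. Replicates 1, 3, 5 and 7 held 365 to 472 CPM of Farsb, 120.1 to 159.8 CPM of Shmt2 and 467 to 626 CPM of Mthfd2. Replicates 2, 4 and 6 held 16.7 to 84.9 CPM of Farsb, 14.7 to 38.4 CPM of Shmt2 and 126 to 192 CPM of Mthfd2. The summed granulosa and cumulus markers ran alongside, at 26.0, 11.0, 13.9 and 21.0 CPM in replicates 1, 3, 5 and 7 and at 2.26, 5.12 and 0.981 CPM in replicates 2, 4 and 6. Only 2 of the 10 markers could be tested, and for Ctrl against NI they went opposite ways. Their log2 fold changes were 2.19 and −2.69, so the sum does not speak for the markers as a set. Zscan4c also ran alongside, at 499, 148, 189 and 161 CPM in replicates 1, 3, 5 and 7 and at 55.8, 59.4 and 38.3 CPM in replicates 2, 4 and 6. It is 1 of 6 listed 2-cell markers, of which 3 had a positive and 3 a negative value for Ctrl against NI. The scaling factors were 0.791, 0.974, 0.911 and 0.917 in replicates 1, 3, 5 and 7. They were 1.36, 1.52 and 0.978 in replicates 2, 4 and 6. The granulosa and cumulus markers summed to 1.74 to 48.5 CPM in KRAB and 1.44 to 25.2 CPM in NI 2-cell libraries. The part of these markers and of the scaling in the result was not tested. Other genes followed another order: Psat1 had 8.56, 271, 274, 234, 46.4, 51.0 and 22.1 CPM in Ctrl 2-cell replicates 1 to 7, and Rars 10.3, 151, 100.5, 149, 23.4, 25.5 and 17.003 CPM, so that replicates 2, 3 and 4 were the high ones.

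**Figure D4:**
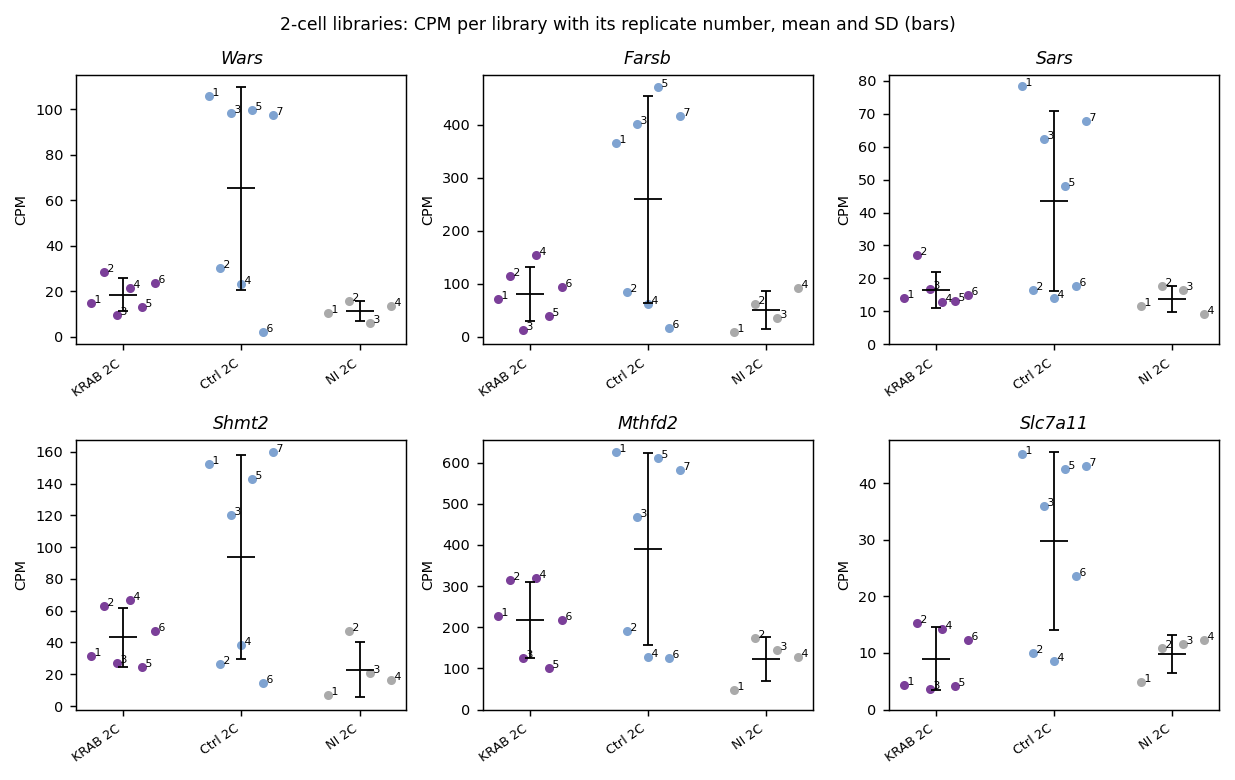
Level in CPM of 6 genes in each 2-cell library (points, with replicate numbers), with the group's mean (line) and SD (bars), for KRAB, Ctrl and NI embryos. Ctrl replicates 1, 3, 5 and 7 lie above the KRAB and NI libraries for each of the 6 genes, while Ctrl replicates 2 and 4 lie within their range or near it.

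For VP64 against Ctrl embryos at the 8-cell stage, none of the 31 genes tested passed (0 of 31 by edgeR, against 0% of 9850 genes, and 0 by DESeq2). None had an unadjusted p under 0.05, against 3.99% of all genes. The estimates were small: the median over the 31 genes was −0.03, against −0.06 over all genes, and the values ran from −0.67 to 0.73. The 95% intervals, which are not adjusted for the number of genes tested, reached a median of 0.95 to either side on the log2 scale. Changes of that size or smaller would mostly not have passed after adjustment, and larger ones may have been missed too. Iars, Shmt2, Mthfd2, Eprs and Slc3a2 had the smallest p, with Iars at 22.4 ± 2.39 CPM in VP64 and 33.5 ± 12.9 CPM in Ctrl embryos (SD, n = 7 and 6). Slc3a2 had 714, 994 and 2629 CPM in VP64 libraries, against 506, 843 and 1326 CPM in Ctrl libraries and 434, 640.4 and 1229 CPM in NI libraries. Atf4 had 62.3, 121 and 199 CPM in VP64 libraries, against 37.8, 100.5 and 287 CPM in Ctrl libraries, and its log2 fold change was −0.14 (95% interval −0.99 to 0.71).

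For VP64 against NI embryos 0 of 31 passed by edgeR (0% of all genes) and 0 by DESeq2. At an unadjusted p under 0.05 there were 2, against 7.17% of all genes: Slc3a2 with a log2 fold change of 0.78 ± 0.36 and Iars with −0.85 ± 0.34. For Ctrl against NI embryos 0 of 31 passed by edgeR (0% of all genes) and 0 by DESeq2, and 0 had an unadjusted p under 0.05, against 4.36% of all genes. Ddit3, with 1.24, had the estimate farthest from 0. NI 8-cell libraries themselves varied, and the 20 synthetases summed to 925 and 1007 CPM in replicates 6 and 5, against 2125 to 3446 CPM in the other 4 replicates. Atf3, Chac1 and Slc7a11 had too few counts to be tested at this stage, and Vars and Atf3 at the 2-cell stage.

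**Figure D5:**
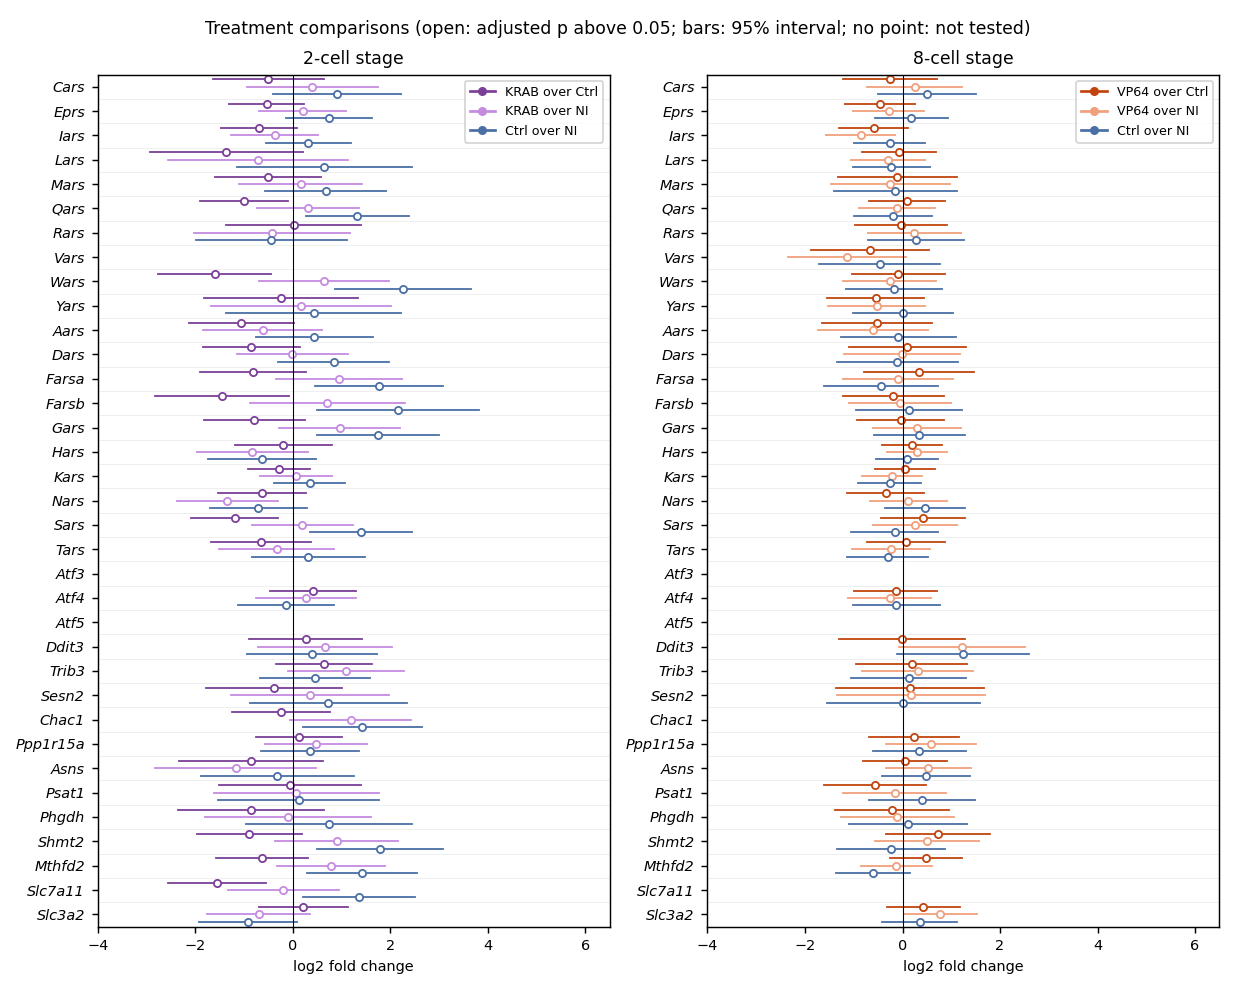
Log2 fold change (points) with 95% interval (bars) of each gene for KRAB over Ctrl, KRAB over NI and Ctrl over NI at the 2-cell stage (left) and VP64 over Ctrl, VP64 over NI and Ctrl over NI at the 8-cell stage (right). Every point is open, since no gene passed an adjusted p of 0.05. The 2-cell estimates for KRAB over Ctrl lie mostly left of 0, and the 8-cell estimates lie on both sides of it.

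Some of these counts could include reads of other genes. The transcript of Phgdh shares 59% of its 31-base words with a processed pseudogene, Gm7901, and that of Iars 17.4% with Gm4849. These are the shares with the single gene that had the most words in common. Exons of Aars (22.7% of words shared) overlap Exosc6 on the same strand over 1326 bases, and those of Mars and Ddit3 overlap each other on opposite strands over 68 bases. Longer overlaps on opposite strands were those of Farsb with Sgpp2 (248 bases, 11% of words shared) and Cars with Gm15580 (211 bases). Hars overlaps Hars2 (195 bases, 8.42% of words shared) and Atf5 overlaps Nup62 (82 bases) in the same way. The sources used here do not say whether counting used the strand, so reads in such overlaps cannot be told apart.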

How the data were processed

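RNA-seq libraries of pooled mouse embryos (SMART-seq v4, per the labels' protocols) were analysed from a table of expected counts per gene that the authors deposited. Bowtie2, RSEM and mm10 are named in the submitters' processing notes, with no versions, and the annotation and strand setting are not stated there. Of the deposited expected counts, 9.85% were not whole, and all were rounded. Groups came from the labels, and replicate numbers follow accession order and pair nothing. Genes were tested with edgeR 4.0.16 (R 4.3.3, limma 3.58.1), using TMM scaling, a low-count filter (minimum count 10, minimum total 15), robust quasi-likelihood fits and Benjamini-Hochberg adjustment over all genes tested. Treatments were fitted on the 17 libraries of the 2-cell or the 19 of the 8-cell stage, and stage changes and their difference on all 36. The biological coefficient of variation was 0.738, 0.609 and 0.703 in these fits. DESeq2 1.42.0, median-ratio size factors, no filter, only the groups compared and each library left out in turn were alternatives, and a joint omission of 4 libraries was added after seeing the data. The procedure was tested on simulated data.

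Genes were named by rule: those with adjusted p under 0.05 and a mean of at least 10 CPM in a compared group, up to 10 rises and 10 falls, or otherwise the 5 smallest unadjusted p, plus up to 4 called genes of each further list. Others are given as levels or counts. The members and lists were chosen with earlier results of these data known. Tables and figures used Python 3.11.15, pandas 2.3.3 and matplotlib 3.10.9.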

Additional observations from a re-analysis of the deposited data

Results flagged for a closer look

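Single libraries far from the rest of their group were looked for among the 28 named genes, on log2(CPM + 1), by the gap to the nearest library over the group's range. Of 167 gene and group sets, 20 held such a library, and chance gives about 1 in 20. VP64 8-cell replicate 7 was the lowest of its group in Farsb (26.96 CPM), Gars (42.8 CPM), Mars (7.49 CPM), Phgdh (152 CPM), Ppp1r15a (18.9 CPM), Psat1 (182 CPM), Rars (111 CPM), Sars (20.4 CPM) and Shmt2 (1.80 CPM). Ctrl 8-cell replicate 6 was lowest in Ppp1r15a (5.72 CPM) and Wars (8.00 CPM), and Ctrl 2-cell replicate 6 in Farsa (0.981 CPM) and Wars (1.96 CPM). At the 2-cell stage KRAB replicate 3 was highest in Eprs (168 CPM) and KRAB replicate 2 in Sars (27.2 CPM). Among NI 2-cell libraries, replicate 2 was highest in Gars (24.7 CPM), replicate 3 lowest in Hars (19.4 CPM) and replicate 1 lowest in Slc7a11 (4.92 CPM). NI 8-cell replicate 1 had 0 CPM of Chac1, and VP64 8-cell replicate 4 was alone in its group with a count of Atf3 (0.3002 CPM).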

How the results depend on the processing

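The number of genes called between the stages was 20 to 23 in Ctrl and 17 to 23 in NI embryos when single libraries were left out. With only the groups compared it was 18 in Ctrl (10 higher, 8 lower, without Atf3, Farsa, Gars, Trib3 and Vars) and 18 in NI embryos (14 higher, 4 lower, without Cars, Dars and Iars). With median-ratio size factors it was 21 in Ctrl (11 higher, 10 lower) and 18 in NI embryos (13 higher, 5 lower), and the median over all genes moved to −0.70 in Ctrl and −0.72 in NI embryos. Relative to that median the 34 genes lay at 0.96 in Ctrl and 1.78 in NI embryos, against 0.98 and 1.76 with TMM. No called gene changed sign under the alternatives run. For the difference of stage changes DESeq2 gave 4 calls, the joint omission of 4 libraries (Ctrl 2-cell replicates 3 and 6, Ctrl 8-cell replicate 6, VP64 8-cell replicate 7, chosen after seeing the data) gave 2, and single omissions gave 0 to 4. For Ctrl against NI at the 2-cell stage DESeq2 gave 5, the joint omission 1 and single omissions 0 to 5. Single omissions gave 0 to 1 for KRAB against Ctrl and 0 for KRAB against NI and for the 8-cell treatment comparisons. The cause was not tested. Of 1160 values of the 67 gene results, 1123 kept their side of the threshold, 18 lost a call, 19 gained one and 0 reversed. No paired analysis was possible because replicate numbers follow accession order. Low counts limit Vars, Atf3, Atf5, Chac1 and Slc7a11.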
